A study of Saccharomyces cerevisiae with 10 samples.

Results

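The small subunit of the yeast cytosolic ribosome is built from one ribosomal RNA and a set of proteins named with the prefix RPS. Most of these proteins are encoded by a pair of nearly identical genes, A and B, which arose in the ancient duplication of the yeast genome, so that a haploid strain lacking one copy can still make the protein from the other. The small subunit reads the messenger RNA and holds the initiator tRNA, and the transcription of its genes is known to be turned down in yeast exposed to many stresses, peroxide among them.

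Here the members are the deletion strains whose gene symbol is RPS plus a number, with or without a final A or B. The annotation of the barcode array lists 53 such genes, and all 53 matched a gene of the RefSeq R64 annotation by gene ID. Of these, 44 were measured, out of 4611 measured deletion strains in all. The other 9 (RPS1B, RPS2, RPS3, RPS13, RPS15, RPS19B, RPS20, RPS30A and RPS31) have no value on any array. Both members were measured for 19 pairs. RPS1A, RPS8A, RPS19A, RPS26B and RPS30B were measured without their sister, and RPS12, which encodes a protein of the beak of the subunit and has no duplicate, was the single-copy member.

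Each strain of the pool carries a pair of barcode tags in place of its gene, and the arrays compare the abundance of these tags in DNA from a pair of portions of one culture. The pool held viable haploid single-gene deletions of Saccharomyces cerevisiae grown in rich medium (YPD), and each replicate was grown from its own aliquot. In the acute comparison, 4 arrays set a portion given 0.4 mM hydrogen peroxide for 1 h and 5 h of regrowth (Cy5) against an untreated portion (Cy3). In the adapted comparison, 6 arrays set a portion that first received 0.1 mM for 45 min and then the same high dose and regrowth (Cy5) against one that received the high dose without pretreatment (Cy3). The pool experiment asks which gene deletions change tolerance of the high dose alone and which change the benefit of the mild pretreatment. The cultures of these comparisons are separate, so they share the strains and their tags but no samples.

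Values are log ratios per strain, averaged over its tags. The sources used here do not name the log base, and natural logs are assumed, a choice that scales every log ratio and leaves each p as it is. A log ratio is relative to the pool as a whole, and survival of the dose and growth in the 5 h that follow it cannot be told apart. No array had the dyes exchanged, so the dye and the treatment cannot be told apart either. The direction of the deposited ratios is not stated in the labels, and the sign was turned for spots numbered above 5400. With these signs the strains lacking YAP1 and SKN7, regulators long known to be needed for peroxide tolerance, had acute log ratios of −1.64 and −1.49 and were below 0 on 4 of 4 arrays each. Their adapted log ratios were −0.40 and −0.51, and that of SKN7 was above 0 on 0 of 6 arrays. If the sign were the other way round, every direction below would turn with it.

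The arrays of a comparison were unlike each other. Over all strains, the correlation of array pairs ran from −0.108 to 0.511 in the acute comparison and from −0.283 to 0.602 in the adapted one. Over the first of the tag sets alone it reached −0.439 between acute replicates 1 and 4, and −0.664 between adapted replicates 2 and 4. Arrays of different comparisons were also correlated, although their cultures were separate. Over all strains this ran from −0.494 (acute replicate 2, adapted replicate 4) to 0.365 (acute replicate 4, adapted replicate 1). By the first tags alone it ran from −0.610 to 0.624. The cause was not tested. Within single arrays the correlation between a strain's tags lay between 0.0567 and 0.224. Of the members, 2 were read by the first tag only, RPS18B among them, and the other 42 by both.

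After the high dose alone, strains lacking a small subunit protein were mostly more abundant relative to the pool than without it. Of the 44 members, 35 (79.5%) had an acute mean above 0 and 9 below, where 45.2% of all strains were above 0. The median log ratio of the members was 0.23, whereas that of all strains was −0.015.

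On acute replicates 1 to 4 the median log ratio of the members was 0.12, 0.22, 0.36 and 0.29. Their medians were therefore above the median of all strains, −0.012 on each of these arrays after normalization, in 4 of 4 cases. The number of members above 0 on these arrays was 31, 33, 36 and 33 of 44, where 48.0% of all strains were above 0 on each. On adapted replicates 1 to 6 the members' medians were −0.061, −0.17, −0.23, −0.19, −0.14 and −0.12, each below the −0.0063 of all strains. Members below 0 numbered 29, 34, 37, 33, 28 and 28 of 44, where 49.0% of all strains were above 0 on each of these arrays. The members thus lay on opposite sides of the pool in the separate sets of cultures. Cy5 marked the treated or pretreated portion in both sets, and an effect of the dye was not tested.

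**Figure D1:**
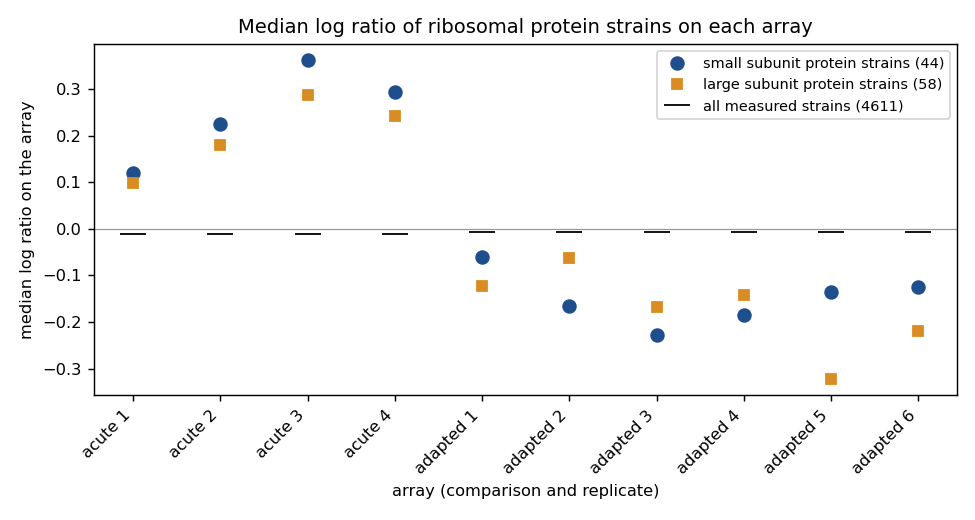
Median log ratio (vertical axis, read as natural log) on each of the 10 arrays (horizontal axis) for the 44 small subunit protein strains (circles), the 58 large subunit protein strains (squares) and all 4611 strains (dashes). The circles lie between 0.12 and 0.36 on the acute arrays and between −0.23 and −0.061 on the adapted arrays.

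In the acute comparison, 5 members rose past the threshold of the Methods (unadjusted p under 0.005, limma) and 0 fell. These 5 (RPS7A, RPS18A, RPS18B, RPS21B and RPS27B) are 11.4% of the members, and in the whole pool 0.933% of strains rose and 2.67% fell past the same threshold. At an unadjusted p under 0.05 there were 16 members above 0 and 0 below, or 36.4% and 0%, beside 5.75% and 6.92% of all strains. After Benjamini-Hochberg adjustment over all strains 0 members passed 0.05, and 3 strains of the pool (0.0651%) did. Above 0 on all 4 arrays were 17 members (38.6%), against 9.17% of all strains. RPS9A was the only member below 0 on all 4, which 10.8% of all strains were. The count of 5 depended on single arrays, as RPS27B passed in each of the 4 fits that left 1 out, RPS7A and RPS18B in 1 of 4, and RPS18A and RPS21B in 0 of 4. It was 2 without replicate 2, 1 without replicate 3 and 1 without replicate 4, while the median of the members stayed between 0.19 and 0.27 whichever array was left out.

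Among proteins of the body and platform of the subunit, the largest acute value belonged to the strain lacking RPS27B, which encodes one copy of a zinc-binding protein. Its log ratios on replicates 1 to 4 were 0.81, 0.63, 0.72 and 1.30. It was thus well above 0 in every culture, with replicate 4 the highest. The mean was 0.86 (SE 0.13, n = 4, limma, unadjusted p = 0.000875, adjusted p = 0.0807), the 4th highest of the 4611 strains. It passed the threshold in each fit that left out 1 array, the highest p among them being 0.00493, while its tags fitted alone gave 0.94 and 1.06 (unadjusted p = 0.00356 and 0.0205), so that it passed by the first and not by the second.

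RPS7A encodes one copy of a body protein that is a target of regulatory ubiquitination on the ribosome. The RPS7A strain had acute log ratios of 0.31, 0.43, 0.96 and 0.75, all above 0 and highest on replicate 3. Its mean was 0.61 (SE 0.13, limma, adjusted p = 0.131).
RPS21B, one copy of a small protein that contacts the RPS0 protein, gave the tightest of the 5 rises. The RPS21B strain had 0.34, 0.48, 0.35 and 0.36 on the 4 arrays, with a mean of 0.38 (SE 0.078, limma, adjusted p = 0.117).

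RPS24A encodes one copy of a body protein whose human counterpart is mutated in some families with Diamond-Blackfan anemia. The RPS24A strain had 0.84, 0.88 and 1.01 on acute replicates 2, 3 and 4, but −0.072 on replicate 1. Its mean of 0.66 (SE 0.20, adjusted p = 0.240) did not pass. RPS4B encodes one copy of a protein of the body, and its strain had 0.35, 0.025, 0.78 and 0.88 with a mean of 0.51 (SE 0.16, adjusted p = 0.276). The RPS0A strain, which lacks one copy of a protein needed for the last steps of small subunit RNA processing, had values as far apart as −0.13 and 1.30. Its mean of 0.40 (SE 0.26, adjusted p = 0.681) is therefore not distinguishable from 0 on these arrays. RPS23B, one copy of a protein of the decoding centre, had −0.028 to 0.71 and a mean of 0.34 (SE 0.14, adjusted p = 0.431), with tag means of −0.047 and 0.74 before normalization between arrays.

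Among proteins of the head, both copies of RPS18, which contacts the tRNA in the P site, rose. The RPS18A strain had acute log ratios of 0.30, 0.48, 0.46 and 0.31, with a mean of 0.39 (SE 0.082, limma, adjusted p = 0.127). The RPS18B strain had 0.44, 0.36, 0.67 and 0.79, with a mean of 0.57 (SE 0.10, limma, adjusted p = 0.0995). RPS18 was the only pair of the 19 with both members past the threshold in one comparison. The values of its A and B strains overlapped, and their difference was −0.18 (95% interval −0.61 to 0.26).

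The single-copy RPS12 gave the second highest acute mean of the members. Its strain had 0.33, 0.37, 0.90 and 1.23, with a mean of 0.71 (SE 0.18, unadjusted p = 0.0086, adjusted p = 0.182), above 0 in 4 of 4 cultures and short of the threshold. RPS16A encodes one copy of a head protein whose tail reaches the P-site tRNA. Its strain had 0.080, 0.61, 0.81 and 0.93, with a mean of 0.61 (SE 0.16, unadjusted p = 0.0097, adjusted p = 0.189). RPS10B, one copy of a head protein near the entry of the messenger RNA channel, had 0.093, 0.34, 0.37 and 1.04, with a mean of 0.46 (SE 0.17, adjusted p = 0.343).

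The lowest acute means did not pass the threshold either. RPS9A, one copy of a protein that affects the accuracy of decoding, had −0.30, −0.20, −0.30 and −0.0056 (mean −0.20, SE 0.090, adjusted p = 0.470). The means of the RPS8A and RPS14A strains were −0.10 and −0.086, with SEs of 0.12 and 0.27. The median SD between arrays was 0.298 over the members and 0.225 over all strains.

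**Figure D2:**
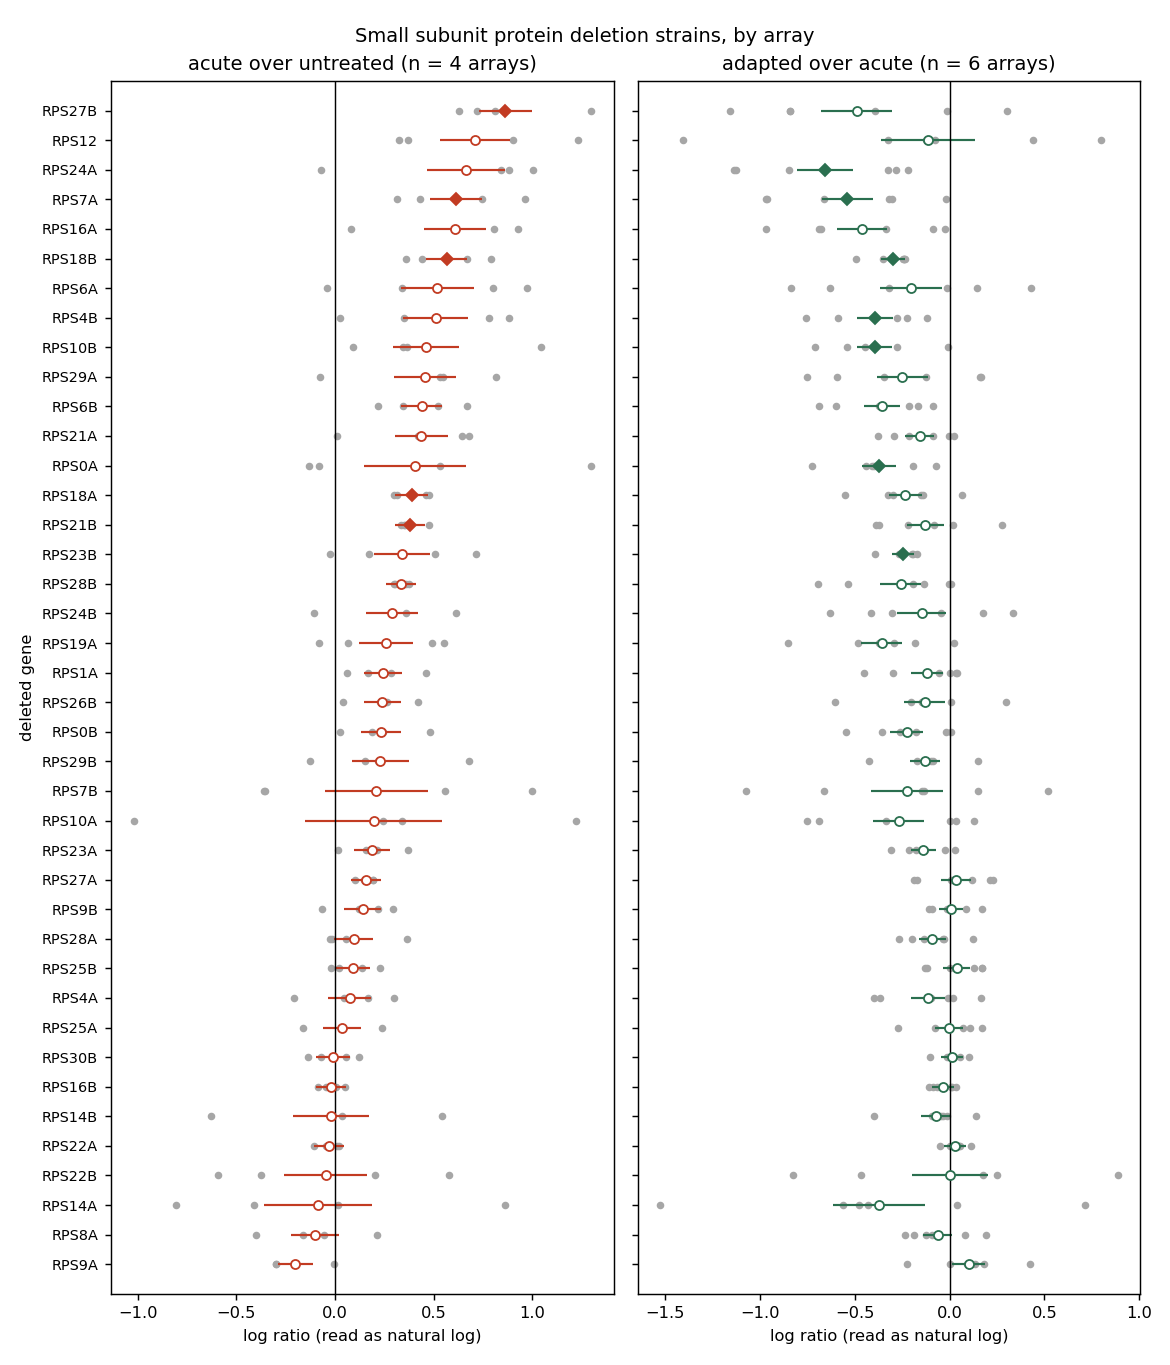
Log ratio (horizontal axis, read as natural log) of 40 small subunit protein strains (rows, ordered by acute mean) in the acute (left) and adapted (right) comparison. Gray dots are arrays, larger symbols are means with their SE, and filled diamonds are strains past an unadjusted p of 0.005 in limma. The 5 filled diamonds on the left lie above 0 and the 7 on the right below 0.

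When the pool had been pretreated with the low dose, the same group of strains was mostly rarer than in the pool that met the high dose without it. Here 36 of the 44 members (81.8%) had a mean below 0 and 8 above, where 54.5% of all strains were below 0. The median of the members was −0.15, beside −0.013 for all strains. Past the threshold, 8 members fell and 0 rose. Of the 8, the 7 described here are RPS0A, RPS4B, RPS7A, RPS10B, RPS18B, RPS23B and RPS24A. The 8 are 18.2% of the members, where 1.52% of all strains fell and 1.26% rose. At an unadjusted p under 0.05 (limma) the members numbered 15 below 0 and 0 above, or 34.1% and 0%, next to 6.38% and 4.47% of the pool. The adjusted p was under 0.05 for 0 members and 1 strain of the pool (0.0217%). Below 0 on all 6 arrays were 10 members (22.7%, against 3.93% of all strains), and above 0 on all 6 there were 0 (against 3.43%). The count of 8 was 4, 3, 4, 1 and 2 without adapted replicates 2, 3, 4, 5 and 6 in turn, and the median stayed between −0.20 and −0.15 whichever array was left out. RPS18B lost its call only without replicate 6, with an unadjusted p of 0.00515 in limma, while RPS24A lost it without replicates 4, 5 or 6. RPS0A, RPS4B, RPS7A, RPS10B and RPS23B lost it in at least 4 of the 6 fits.

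In the body and platform, the lowest adapted mean was that of RPS24A. Its strain had −0.22, −0.33, −0.29, −1.14, −0.85 and −1.13 on replicates 1 to 6, below 0 in every culture and lowest on replicates 4, 5 and 6. The mean was −0.66 (SE 0.15, n = 6, limma, adjusted p = 0.135), the 9th lowest of the pool. The RPS7A strain, which had risen in the acute comparison, had −0.019, −0.32, −0.96, −0.31, −0.97 and −0.66. Its adapted mean was −0.54 (SE 0.14, limma, adjusted p = 0.163), with replicate 1 close to 0.

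The RPS4B strain had −0.28, −0.22, −0.76, −0.59, −0.40 and −0.12 (mean −0.40, SE 0.094, limma, adjusted p = 0.151). The RPS0A strain had −0.73, −0.074, −0.41, −0.20, −0.40 and −0.44 (mean −0.37, SE 0.090, limma, adjusted p = 0.155). Both were thus below 0 on 6 of 6 arrays, with values far apart between cultures. Of the strains that fell, RPS23B had the smallest change and one of the narrowest spreads, from −0.39 to −0.17 with a median of −0.23 (mean −0.25, SE 0.060, limma, adjusted p = 0.155). This fall rested on the second tag, which gave −0.41 in a fit of its own where the first gave −0.084 (limma, unadjusted p = 0.00209 and 0.338). For RPS0A the first tag gave −0.60 and the second −0.22 (unadjusted p = 0.00495 and 0.337). RPS27B, the highest member of the acute comparison, had −0.012, −0.39, −1.16, −0.84, −0.84 and 0.30, and its mean of −0.49 (SE 0.19, adjusted p = 0.374) did not pass.

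In the head, the RPS18B strain had −0.23, −0.24, −0.24, −0.49, −0.25 and −0.35 (mean −0.30, SE 0.063, limma, adjusted p = 0.115), a narrow range with replicate 4 lowest. This strain was read by the first tag alone. The RPS10B strain had −0.010, −0.39, −0.71, −0.28, −0.45 and −0.54 (mean −0.40, SE 0.093, limma, adjusted p = 0.149), and its tags alone gave −0.23 and −0.62 (unadjusted p = 0.221 and 0.00187). The RPS16A strain was also below 0 on all 6 arrays, from −0.97 to −0.024, with a mean of −0.46 (SE 0.13, adjusted p = 0.223) that did not pass.

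The RPS12 strain, high in the acute comparison, ran from 0.80 on adapted replicate 1 to −1.41 on replicate 6. Its mean of −0.12 (SE 0.25, adjusted p = 0.947) cannot be given a direction. Among the highest adapted means of the members were 0.10 for RPS9A, 0.037 for RPS25B and 0.034 for RPS27A, with SEs of 0.087, 0.070 and 0.080. None of these passed an unadjusted p of 0.05 in limma.

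The comparisons set side by side show how far the same strains appear in both. RPS7A and RPS18B were the 2 members that rose in the acute comparison and fell in the adapted one, 11 passed in at least one, and 33 passed in neither. The matching shares of all strains were not counted, so these numbers do not tell whether the members stand out. Regardless of the threshold, 31 of the 44 members (70.5%) had an acute mean above 0 and an adapted mean below 0. The same was found for 33 of 58 large subunit protein strains (56.9%) and for 1421 of all 4611 strains (30.8%). Across the 44 members the acute and adapted means had r = −0.59 and rho = −0.64, given as a description over strains that share their arrays. The r was −0.57 over the large subunit strains and −0.44 over the pool.

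**Figure D3:**
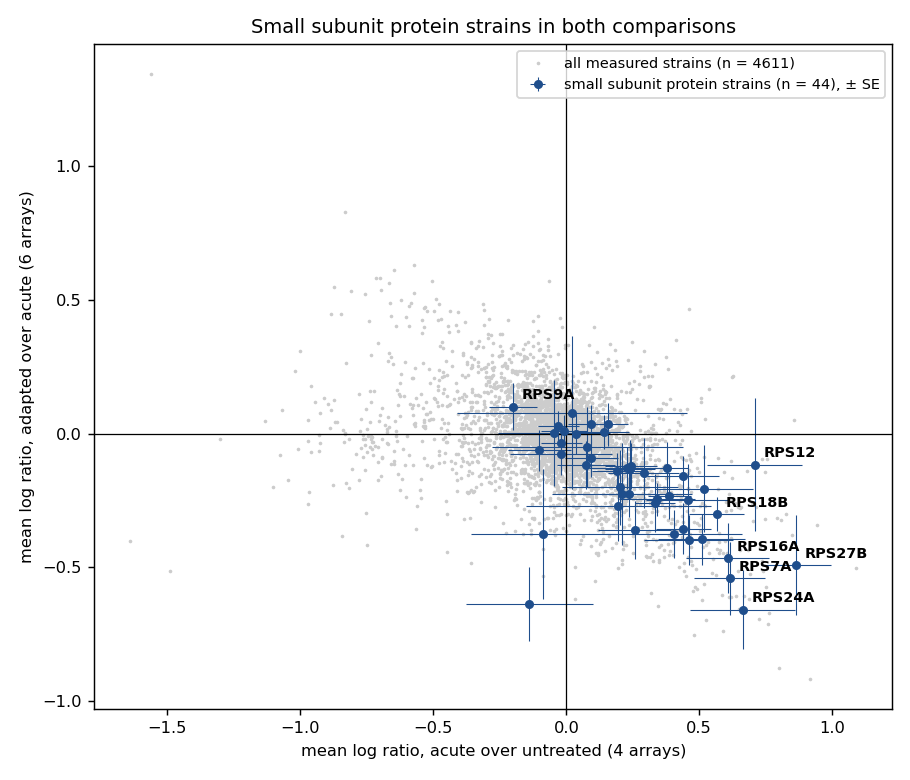
Mean log ratio in the adapted comparison (vertical axis, 6 arrays) against that in the acute comparison (horizontal axis, 4 arrays), both read as natural log, for the 44 small subunit protein strains (blue, with SE) and all 4611 strains (gray). Of the blue points, 31 lie to the right of 0 and below it, with RPS27B farthest to the right at 0.86 and −0.49.

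The adaptive contrast of the study subtracts the acute mean from the mean of acute over adapted, which equals minus the sum of the adapted and acute means used here. It reuses all 10 arrays of the comparisons above. No member passed (0 of 44 by limma), while 1.54% of all strains passed above 0 and 0.173% below. At an unadjusted p under 0.05 there was 1 member above 0 and 1 below, beside 4.01% and 1.54% of all strains. The median of the members was −0.069, against 0.024 for the pool. It ran from −0.12 without acute replicate 1 to −0.032 without acute replicate 2, and was −0.00081 by the first tag and −0.14 by the second, so its distance from 0 is not settled. RPS12 had the lowest contrast of the members at −0.59.

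Each pair of paralogs was then compared within arrays, as the log ratio of the A strain minus that of the B strain. The fit ran over all 45 pairs of the table whose symbols differ only in the final A or B, of which 19 are small subunit pairs. In both comparisons 0 of the 19 pairs, and 0% of the 45, passed an unadjusted p of 0.005. At an unadjusted p under 0.05 (limma), 2 of the 19 differed in the acute comparison and 3 in the adapted one, where 15.6% of the 45 pairs did in each. Most of these differences hung on single arrays: with 1 left out, the highest unadjusted p was 0.0292 for RPS27 and 0.0823 for RPS16 in the acute comparison, and 0.0592 for RPS27, 0.0758 for RPS16 and 0.108 for RPS24 in the adapted one. The smallest adjusted p was 0.275 in the acute and 0.218 in the adapted comparison. A paralog label carried no common direction. The A strain was above the B strain in 8 pairs and below it in 11 in the acute comparison, and above in 10 and below in 9 in the adapted one. The median absolute difference was 0.23 and 0.15.

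In the acute comparison both members were above 0 in 14 of the 19 pairs, both below in 2, and on opposite sides in the rest. In the adapted comparison both were below 0 in 14 and both above in 2. Singly, 79.5% of the members were above 0 in the acute and 81.8% below 0 in the adapted comparison. The pair counts therefore do not tell whether sisters resemble each other more than other members do, and the share over other pairs was not counted. The intraclass correlation of the log ratios of sister strains, given as a description over 19 pairs, was 0.17 in the acute and 0.063 in the adapted comparison.

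The widest acute difference was that of RPS27. Beside the 0.81, 0.63, 0.72 and 1.30 of the RPS27B strain given above, the RPS27A strain had 0.15, 0.19, 0.19 and 0.099. The values of the strains did not overlap, which held for 6.67% of the 45 pairs, and A minus B was −0.71 (95% interval −1.18 to −0.24, limma, unadjusted p = 0.0093, adjusted p = 0.275). The sign held in 4 of 4 cultures, for which an exact sign-flip test gives 0.125, two-sided, the smallest value 4 arrays allow. With pretreatment the RPS27A strain had a mean of 0.034 (SE 0.080) and the RPS27B strain −0.49. A minus B was 0.53 (95% interval 0.12 to 0.93, limma, unadjusted p = 0.0162, adjusted p = 0.218), above 0 in 5 of 6 cultures (exact sign-flip test, two-sided, p = 0.0625). The acute difference kept an unadjusted p under 0.05 whichever array was left out, and the adapted one lost it without replicate 3 or 5.

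RPS16 showed the other pair without overlap, with the A strain outside and the B strain near 0. The RPS16B strain had acute values of 0.052, −0.087, 0.0057 and −0.047, all below the 0.080 to 0.93 of the RPS16A strain. A minus B was 0.63 (95% interval 0.12 to 1.13, limma, unadjusted p = 0.0219, adjusted p = 0.275), with the unadjusted p at 0.0823, 0.0776 and 0.0721 without replicates 2, 3 and 4. With pretreatment the RPS16B strain lay between −0.11 and 0.031, and A minus B was −0.43 (95% interval −0.79 to −0.064, limma, unadjusted p = 0.0253, adjusted p = 0.228). The A strain was lower in 6 of 6 cultures (exact sign-flip test, two-sided, p = 0.031, the smallest that 6 arrays allow), although the ranges of the strains overlapped and the unadjusted limma p was above 0.05 without replicate 3, 4 or 5.

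For RPS24 the acute difference was 0.37 (95% interval −0.21 to 0.95), and the RPS24B strain ran from −0.11 to 0.61 with a mean of 0.29. With pretreatment the RPS24B strain ran from −0.63 to 0.33 with a mean of −0.15, and A minus B was −0.51 (95% interval −0.96 to −0.056, limma, unadjusted p = 0.031, adjusted p = 0.232), below 0 in 4 of 6 cultures (exact sign-flip test, two-sided, p = 0.125). The unadjusted limma p was above 0.05 without replicate 2, 4, 5 or 6. For RPS4, whose A strain had an acute mean of 0.075 and an adapted mean of −0.12, the intervals were −0.91 to 0.044 and −0.12 to 0.68.

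RPS7 showed a wide spread. The RPS7B strain had acute values of 1.00, −0.36, 0.56 and −0.36 and adapted values from −1.08 to 0.52. The differences of 0.40 (95% interval −0.31 to 1.12) and −0.31 (95% interval −0.90 to 0.27) include 0. A fit of the adapted pairs without replicates 1 and 2, which resembled each other most (r = 0.602), gave 2 pairs past the threshold, RPS7 among them. That setting was chosen after the data were seen. The interval of A minus B for RPS10 in the acute comparison ran from −1.30 to 0.77, and no pair was shown to act alike.

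**Figure D4:**
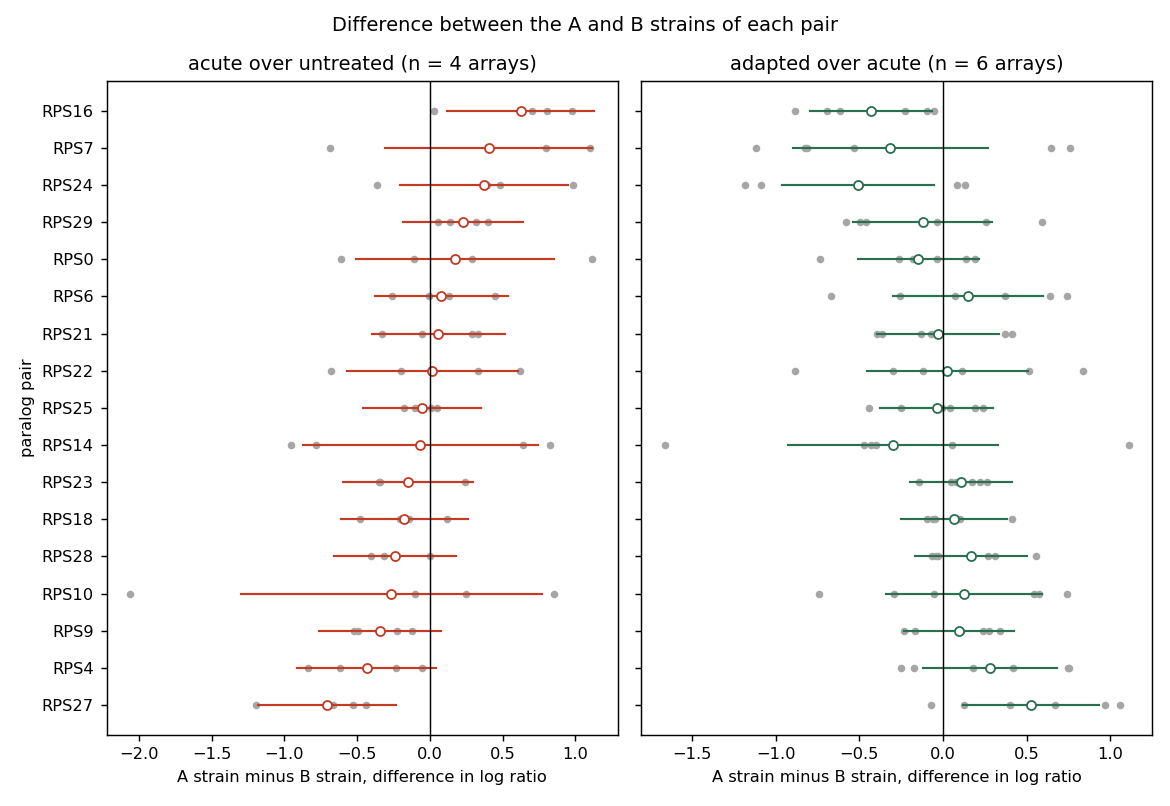
Difference in log ratio between the A and the B strain (horizontal axis, A minus B) of 17 small subunit paralog pairs (rows, ordered by the acute difference) in the acute (left) and adapted (right) comparison. Gray dots are arrays, open circles are means and lines are 95% intervals from limma. The intervals of RPS27 and RPS16 leave out 0 in both panels, and that of RPS24 does so on the right.

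The tags of a strain offer a reading of the same cultures through separate spots. Over the 42 members with both, the acute median was 0.16 by the first tag and 0.31 by the second. Both tags were above 0 for 25 members, both below for 4, and on opposite sides for 13. In the adapted comparison the medians were −0.15 and −0.19, with both tags below 0 for 28 members, both above for 0 and on opposite sides for 14. Across members the tag means had correlations of 0.29 and 0.31.

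Strains lacking other parts of the translation machinery were read beside the members. Rises and falls are again those past an unadjusted p of 0.005 in limma. In the whole pool 0.933% of strains rose and 2.67% fell in the acute comparison. In the adapted comparison 1.26% rose and 1.52% fell. The adjusted p was under 0.05 for 0 strains of these lists. Of the 58 large subunit protein strains, 43 had an acute mean above 0 (median 0.20), and 2 rose, RPL7A with 0.51 and RPL40B, which encodes a ribosomal protein fused to ubiquitin, with 0.65. In the adapted comparison 41 were below 0 (median −0.23), 8 fell and 1 rose, with RPL20A at −0.65, RPL8B at −0.52 and RPL41B at 0.23. The large subunit strains thus moved in the directions of the small subunit strains. Among the 4 strains lacking a stalk protein, RPP2A fell in the adapted comparison with −0.26.

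Of 11 listed factors for assembly and maturation of the small subunit, 10 were measured. TSR3, which modifies the small subunit RNA, and FYV7, a factor for early processing of that RNA, rose in the acute comparison with 0.47 and 0.50, and the list had a median of 0.29. LTV1, an assembly factor of the beak, and BUD21, a part of the complex that first binds the nascent subunit RNA, fell in the adapted comparison with −0.61 and −0.39. Of 8 measured factors bound to the ribosome or the nascent chain, ASC1, a protein of the small subunit head, rose in the acute comparison with 0.45. In the adapted comparison ZUO1, a ribosome-bound chaperone, fell with −0.62, and EGD1, a subunit of the nascent chain complex, rose with 0.37.

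Among 9 measured initiation factors and regulators that act on the small subunit, 0 passed in the acute comparison. EAP1, which binds the cap-binding protein, rose in the adapted comparison with 0.57, above 0 on 5 of 6 arrays. Of 8 strains lacking factors that sense or rescue stalled ribosomes, 0 passed in either comparison. Of 5 measured regulators of ribosomal protein genes, SFP1, a transcription factor that acts in response to nutrients, and HMO1, which binds their promoters, fell in the adapted comparison with −0.88 and −0.70, and 0 passed in the acute one.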

How the data were processed

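Deposited values are log ratios per array spot (ln is assumed), which the authors made from GenePix 6.0 readings after median and loess correction. Signs were turned above spot 5400 because repeated spots up to there had the opposite sign (3510 spots, tolerance 1e-09) and later ones did not. The overall direction was set with earlier results of these data known, as were the members and lists. Spots were averaged per tag and strain, arrays quantile normalized within a comparison, and means tested against 0 in limma 3.58.1 (R 4.3.3), two-sided, at an unadjusted p of 0.005 (the Methods' threshold) with Benjamini-Hochberg adjustment. Pairs were tested on within-array differences, adjusted over 45 pairs. Tables were made with Python 3.11.15. Of 22575 spots, 16850 held values, and 464 of the 4611 strains are known by spot only. Spot intensities were not used, so signal over background is unknown, and the number of arrays limits precision. Named members passed in any strain comparison, had the 4 highest or lowest means of a comparison, belonged to the widest pairs or had no duplicate; results of 2 pairs are counted but not reported here by name. Alternatives were tags, normalization, spread, and left-out arrays. The fits were tested on simulated data with arrays drawn independently, so that test does not cover the correlations between arrays given above.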

Additional observations from a re-analysis of the deposited data

Results flagged for a closer look

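Of 52 sets of array values of the named members and pairs, 2 held an array far from the others by Dixon's criterion, where chance gives about 1 in 20. The RPS24A strain had −0.072 on acute replicate 1 and between 0.84 and 1.01 on the others. The RPS21B strain had 0.48 on acute replicate 2 and between 0.34 and 0.36 on the others.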

How the results depend on the processing

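Counts, medians, called strains and the pairs with an unadjusted limma p under 0.05 were recomputed, and 0 changed direction. Members that were not called did: 10 of 44 changed sign in the acute comparison with the first tag set only and 9 in the adapted one, and up to 6 and 5 did with 1 array left out. The count of members that rose in the acute comparison, 5, was 3 with the first tag set only, 3 with no moderation of the spread and 2 without acute replicates 2 and 4, and ran from 1 to 6 with 1 array left out. The count that fell in the adapted comparison, 8, was 2 with the first tag set only, 4 with the second only, 2 with no moderation and 5 without adapted replicates 1 and 2, and ran from 1 to 7 with 1 array left out. The adaptive contrast gave 1 member in place of 0 with a single shared spread, and the adapted pairs 2 in place of 0 without adapted replicates 1 and 2. The fits without 2 arrays were added after the data were seen. The cause of these shifts was not tested. Of 111 counts and medians recomputed, 94 stayed close (counts within 1.5 times, medians within 1 SD between arrays). Many of the 94 were medians or counts that stayed at 0. The 15 that weakened were all counts of members called in the acute or the adapted comparison, and 2 other counts grew. Of 232 values for single strains and pairs, 83 lost their call. All 83 belonged to called strains, because the pairs had not passed the threshold and had no call to lose. A like count need not hold like strains: the second tag set shared 1 of the 5 acute calls and 2 of the 8 adapted ones. It could share at most 4 and 6 of them, since members read by the first tag only, RPS18B among them, have no second tag. The fit with no quantile normalization shared 3 and 7. The replicate block gave 0 members in the adaptive contrast, as the fit without it did. Deviations of same-numbered arrays had correlations of −0.34, 0.26, −0.17 and −0.24. The closest adapted array bore the same number only for acute replicate 2. The cultures of the comparisons are separate, so same-numbered arrays share no samples. Whether they were handled together cannot be told from these values, because each deviation is taken from a mean of only 4 or 6 arrays. Depth is unknown, and 4 to 6 arrays limit what can be told from 0.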
